A study of Mus musculus with 192 samples.

Results

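The genes described here were 34 genes of T cell development, chosen by name from the 54752 genes listed in every library. All 34 were found, and they were described in 4 groups named for a stage of T cell development. Several genes are not confined to the stage of their group. The immature group held 8 genes (Il2ra, Ptcra, Rag1, Rag2, Dntt, Tcf7, Bcl11b and Gata3). The double positive group held 10 genes (Cd4, Cd8a, Cd8b1, Themis, Satb1, Tox, Lef1, Ccr9, Zbtb7b and Cd69). Among these, Zbtb7b and Cd69 belong to cells under or past selection rather than to the stage as a whole. The mature group held 5 genes (Ccr7, Il7r, S1pr1, Klf2 and Cd27). The remaining 11 genes serve T cells at most stages (Cd3d, Cd3e, Cd3g, Cd247, Lck, Zap70, Lat, Cd2, Cd5, Cd28 and Ets1).

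T cells are made in the thymus. Precursors from bone marrow pass through a stage without CD4 or CD8 and reach a stage with both that makes up most of the organ. They cut and join their T cell receptor genes with the RAG enzymes at both stages. Cells whose receptor is accepted keep CD4 or CD8 alone, move to the medulla and leave for blood, spleen and lymph nodes, which hold mature T cells.

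The data were RNA-seq libraries from 9 tissues of male mice, labelled as strain C57BL/6 (C57BL/6J background in the published methods) and as 12 weeks of age. The published methods give that age for mice ready for launch, so flown mice were older at dissection. The ground experiment was run to imitate the flight. The 4 groups were wild type on the ground (GC_WT), wild type flown (FL_WT), Nrf2KO on the ground (GC_KO) and Nrf2KO flown (FL_KO). Flown mice lived on the International Space Station and were dissected in California after return, and the ground controls were kept in the same kind of cage in Japan some months later, so flight, site and season cannot be told apart. Nrf2KO mice carry a germline deletion of the stress-response factor Nrf2 (gene Nfe2l2) in every cell. The study had removed Nrf2KO animals with a liver shunt before both experiments. Each group held 6 mice per tissue, or 3 in mandibular bone and kidney, and mice of the same number in flight and on the ground were different animals. The study omitted the flown Nrf2KO mouse FL04, which bled into the intestine on the return. It was left out here too, so FL_KO held 5 mice in thymus and spleen.

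Promoters are printed for 6 members whose values are described below, 4 of the immature group, 1 of the double positive group and 1 of the mature group. Each run is the 250 bases before the RefSeq start site in GRCm38.p6, read 5′ to 3′ on the strand of the gene. Capitals mark matches, on either strand, to a RUNX motif (TGTGGT) or an ETS motif (AGGAAGT).
Rag1 (chr2:101649533-101649782, minus strand): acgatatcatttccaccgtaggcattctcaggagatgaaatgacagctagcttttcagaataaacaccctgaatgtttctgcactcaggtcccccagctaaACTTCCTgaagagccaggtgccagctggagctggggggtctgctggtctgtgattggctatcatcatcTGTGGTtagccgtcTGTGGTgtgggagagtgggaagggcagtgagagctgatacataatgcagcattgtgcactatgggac
Rag2 (chr2:101624462-101624711, plus strand): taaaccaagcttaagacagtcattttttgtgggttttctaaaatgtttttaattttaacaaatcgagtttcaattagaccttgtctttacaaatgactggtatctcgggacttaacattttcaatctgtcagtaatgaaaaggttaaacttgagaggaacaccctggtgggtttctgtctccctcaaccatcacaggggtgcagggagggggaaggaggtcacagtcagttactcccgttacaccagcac
Dntt (chr19:41029025-41029274, plus strand): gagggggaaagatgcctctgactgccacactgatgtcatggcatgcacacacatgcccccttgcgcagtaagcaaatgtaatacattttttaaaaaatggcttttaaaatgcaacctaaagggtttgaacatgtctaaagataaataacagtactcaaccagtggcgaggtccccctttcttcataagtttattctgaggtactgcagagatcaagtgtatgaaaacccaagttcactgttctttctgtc
Il2ra (chr2:11642542-11642791, plus strand): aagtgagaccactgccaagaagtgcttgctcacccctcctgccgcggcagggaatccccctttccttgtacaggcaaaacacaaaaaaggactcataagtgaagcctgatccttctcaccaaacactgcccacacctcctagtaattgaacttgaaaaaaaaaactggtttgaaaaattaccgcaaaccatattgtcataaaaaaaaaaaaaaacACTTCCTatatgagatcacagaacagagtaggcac
Cd8a (chr6:71373177-71373426, plus strand): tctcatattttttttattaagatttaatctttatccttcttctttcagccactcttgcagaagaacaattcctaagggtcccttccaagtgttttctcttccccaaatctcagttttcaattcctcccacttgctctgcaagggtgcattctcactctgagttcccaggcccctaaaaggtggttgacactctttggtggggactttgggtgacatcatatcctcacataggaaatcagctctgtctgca
Il7r (chr15:9529877-9530126, minus strand): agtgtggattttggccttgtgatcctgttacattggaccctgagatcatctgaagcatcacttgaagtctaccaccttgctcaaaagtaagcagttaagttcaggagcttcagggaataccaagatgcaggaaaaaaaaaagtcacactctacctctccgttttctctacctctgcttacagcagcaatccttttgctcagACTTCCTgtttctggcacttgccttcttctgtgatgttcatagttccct

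The window of Rag1 held 2 RUNX matches and 1 ETS match, and those of Il2ra and Il7r held 1 ETS match each. No capitals appear in the windows of Rag2, Dntt and Cd8a, which says only that these letters are not in these windows. Of the 34 members, 25 were in the RefSeq promoter table, and the 18 with 1 start site were searched. The ETS motif was present in 7 of the 18 (Cd247, Cd3d, Cd3e, Cd5, Il2ra, Il7r and Rag1) and in 7.69% of all 32817 promoters of this length. The RUNX motif was in 1 of the 18 and in 14% of all promoters. The E-box CANNTG was in 14 of the 18 and 66.2% of all, the TCF/LEF motif CTTTGA in 2 and 13.8%, and the GATA motif AGATAA in 2 and 9.99%. The FOXO motif GTAAACA was in 0 of the 18 and 3.16% of all. TGANNNNGC, the core of the element that Nrf2 binds, was in 5 of the 18 (Cd3e, Cd8a, Il2ra, Lat and Rag1) and 35.2% of all promoters. These matches are a description of letters and no test of binding.

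Several members lie side by side in the mouse genome (GRCm38). Rag1 (chr2:101638282-101649501, minus strand) and Rag2 (chr2:101624718-101632529, plus strand) have start sites 24.8 kb apart. Cd3d (chr9:44981786-44987339, plus strand) and Cd3g (chr9:44969572-44980431, minus strand) start 1.35 kb apart, and Cd3e (chr9:44998740-45009627, minus strand) lies next to them. Cd8a (chr6:71373427-71379173) and Cd8b1 (chr6:71322788-71337494), both on the plus strand, start 50.6 kb apart. Exons of 14 members overlap an exon of another annotated gene. The published methods name a strand-specific library kit, but the strand setting of the counting is not known. Whether reads there were told apart by strand is therefore also not known. Among these are Rag1 and Rag2 (B230118H07Rik, on the same strand as Rag1 and opposite to Rag2). Overlaps on the opposite strand include Cd3e (Gm48719), Cd247 (Pou2f1), Ccr9 (Slc6a20a), Zbtb7b (Gm15417) and Lef1 (Gm43352).

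Thymus libraries held 8.008 M to 10.56 M expected counts (M, mega) and spleen libraries 13.11 M to 13.71 M. Every member had a median of at least 154 counts per library in thymus (154 for Klf2, 44423 for Rag1). In spleen 30 of 34 members had a median of 100 counts or more, and Rag1, Rag2, Ptcra and Dntt fell short of it. Nfe2l2 was at 20.9 to 32.5 TPM in WT thymus and 7.55 to 13.6 TPM in Nrf2KO thymus. In spleen it was at 73.1 to 86.7 TPM in WT and 60.4 to 67.8 TPM in Nrf2KO mice. Both match the genotype labels, and transcripts of the disrupted gene are still counted. The thymus library of GC04 stood farthest from its own group, with a root mean square distance of 0.44 from the median of the other GC_KO mice. In the other 3 groups, distances measured likewise within the group were 0.296 to 0.393. In GC04, 22.9% of reads came from 10 genes. Of the other GC_KO thymus libraries, GC01 (0.422, with 21.3% of reads in 10 genes) and GC11 (0.396) were also beyond the distances in those groups. Counts of members called with flight in thymus, and the calls higher in GC_KO than in GC_WT, are also given with each of these libraries left out. Most other GC_KO values, such as levels, fold changes and ratios, are given only with them kept.

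Across tissues of GC_WT mice, the median level was highest in thymus for 25 of 34 members and in spleen for 8. Zbtb7b was highest in white fat (eWAT), at a median of 74.7 TPM against 49.6 in spleen and 7.61 in thymus. All 34 members reached a median of 1 TPM in thymus and 31 did so in spleen. Temporal bone, which contains marrow, reached it for 25 members, eWAT for 16, mandibular bone and cerebrum for 11 each, liver for 7, and brown fat (iBAT) and kidney for 6 each. The thymus libraries were made from ribosome-depleted RNA and the others from poly(A) RNA, so levels compared between thymus and other tissues also differ in library type.

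Levels in thymus and spleen of GC_WT mice split largely by stage group, with exceptions. Of the 8 immature genes, 7 had the higher median in thymus, with Rag1 at a median of 869 TPM in thymus and 0.18 in spleen, and Dntt at 625 and 2.88. Il2ra was the exception, at 6.52 TPM in thymus and 8.02 in spleen. Of the 10 double positive genes, 7 were higher in thymus without overlap, and Lef1 overlapped. Zbtb7b (median 7.61 TPM in thymus and 49.6 in spleen) and Cd69 (21.8 and 30.5) were higher in spleen. Of the 5 mature genes, 4 had the higher median in spleen. S1pr1, the receptor through which T cells sense the exit signal of blood, was at a median of 6.07 TPM in thymus and 222 in spleen, and Klf2, the transcription factor that switches S1pr1 on, at 7.34 and 208. Cd27 was the exception, at 145 and 90.8 TPM. S1pr1 was also at 103 TPM in cerebrum and 88.7 in eWAT, and Cd4 at 19.6 in cerebrum, so neither is a measure of T cells outside lymphoid tissue.

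**Figure D1:**
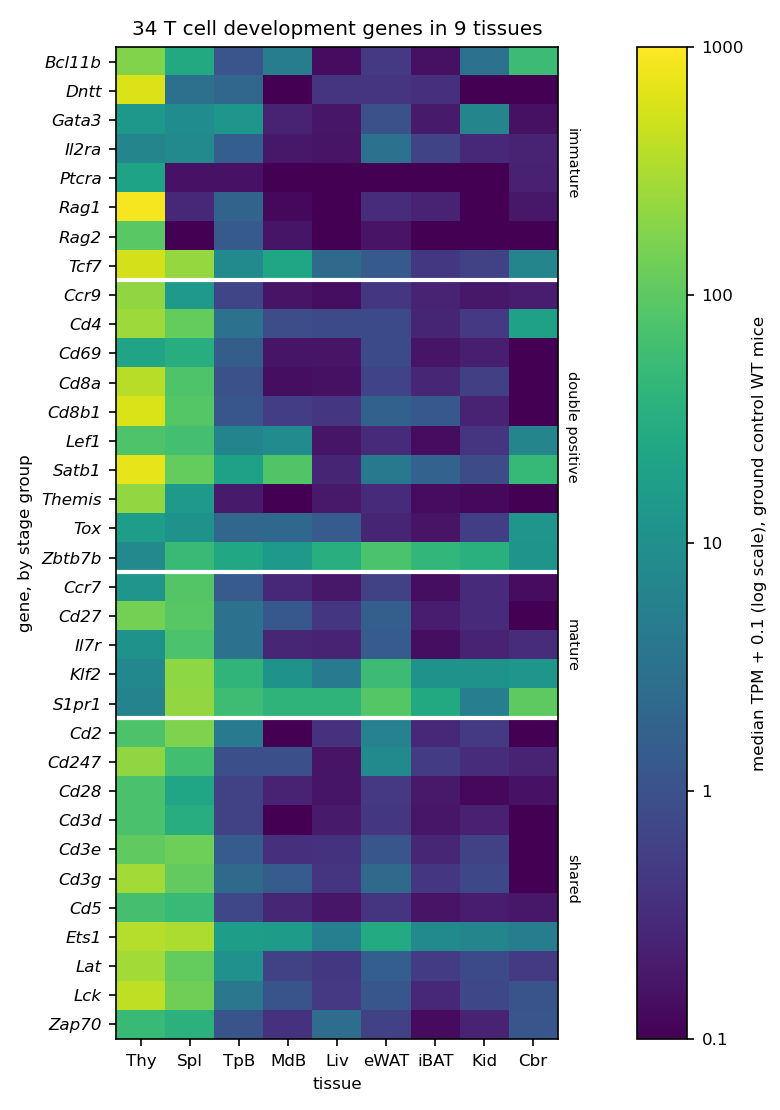
Median TPM (with 0.1 added, on a logarithmic colour scale) of each of the 34 genes (rows, by stage group) in the GC_WT mice of each of 9 tissues (columns; 6 mice per tissue, 3 in MdB and Kid). Most genes of the immature and double positive blocks are brightest in Thy, but Il2ra and Cd69 are brightest in Spl and Zbtb7b in eWAT. S1pr1 and Klf2 are brightest in Spl. TpB is temporal bone, MdB mandibular bone, Liv liver, Kid kidney and Cbr cerebrum.

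In the thymus of flown mice, most members were lower than in ground controls of the same genotype, and a smaller set was higher. In WT mice, 19 of 34 members were called lower and 5 higher at an adjusted p under 0.05 (edgeR quasi-likelihood test), where 11% of all 16307 genes tested were called lower and 11.8% higher. In Nrf2KO mice, 21 were called lower and 7 higher, against 18.9% and 19.3% of all genes. The median log2 fold change of the 34 members was −0.23 in WT and −0.35 in Nrf2KO mice, beside 0.02 and −0.01 over all genes tested. Without the GC04 library the counts were 20 lower and 5 higher in WT mice and 22 lower and 6 higher in Nrf2KO mice. They were 19 and 5 and 22 and 7 without GC01, and 20 and 6 and 20 and 7 without GC11. The 19 genes called lower in WT mice were also called lower in Nrf2KO mice, and Il2ra, Il7r, S1pr1 and Zbtb7b were called higher in both. Lef1 was called higher in WT mice alone, Ccr7, Cd69 and Klf2 higher and Cd3e and Cd3g lower in Nrf2KO mice alone, and Cd2, Cd5, Gata3, Ptcra and Tox in neither. In bulk tissue, fewer cells of a stage and less RNA per cell cannot be told apart.

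The scale on which libraries were compared mattered for how many members were called. On TPM, the median of all genes itself rose by 0.18 in WT and 0.16 in Nrf2KO mice on the log2(TPM + 1) scale. With limma on that scale, 11 members were called higher and 4 lower in WT mice, and 10 higher and 10 lower in Nrf2KO mice, in place of 5 and 19 and of 7 and 21. Relative to the shift of all genes, all 24 members called in WT mice and all 28 called in Nrf2KO mice lay on the same side as in the main test. Among these called members, the sign about 0 turned for Cd28, Lat and Themis in WT mice and for Cd3e, Cd3g and Cd28 in Nrf2KO mice. DESeq2 on the counts called 20 lower and 5 higher in WT mice, the added gene being Cd3g, and 21 lower and 7 higher in Nrf2KO mice. Shares of all genes called are given only for edgeR at the adjusted threshold. Counts by limma or DESeq2, or at an unadjusted p, here and below, therefore have no such share beside them.

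**Figure D2:**
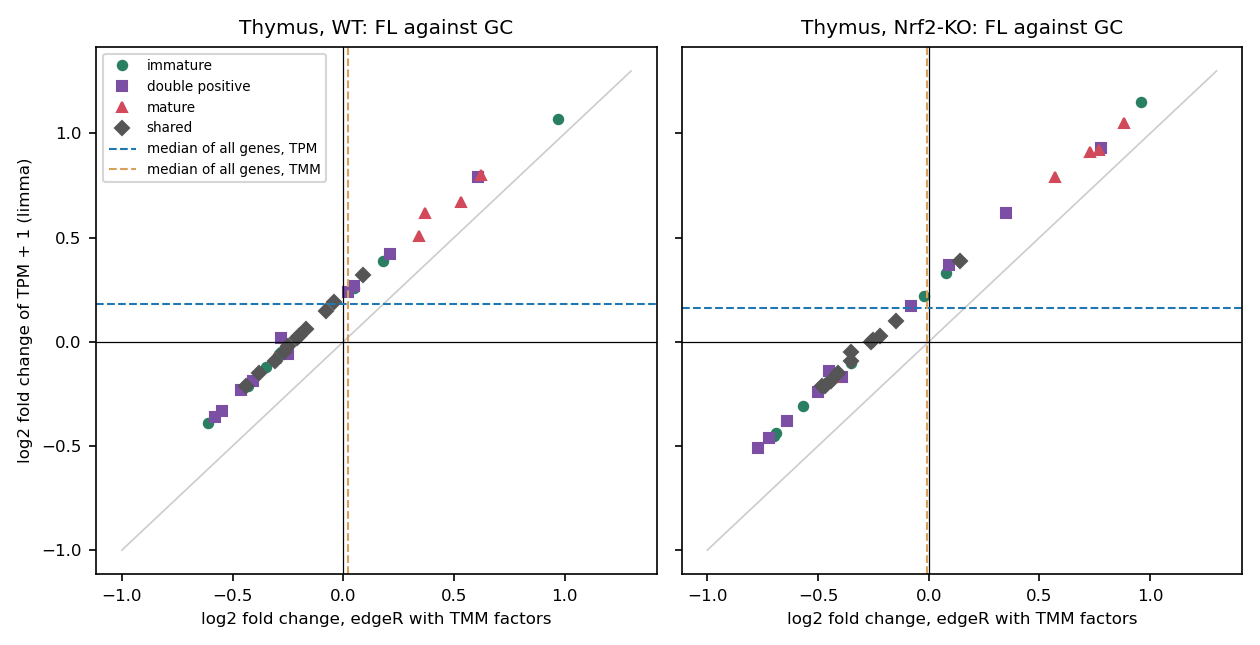
Log2 fold change of flight against ground in thymus on TPM + 1 (limma, vertical axis) against that on TMM-scaled counts (edgeR, horizontal axis), for WT (left) and Nrf2KO mice (right), with 1 symbol per gene shaped and coloured by stage group and dashed lines at the medians of all genes. The points run parallel to the grey line of equality and above it. Among genes called on counts, Cd28, Lat and Themis (WT) and Cd3e, Cd3g and Cd28 (Nrf2KO) therefore lie below 0 on counts and at or above it on TPM, and some genes not called do so too.

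In the immature group, 5 of 8 genes were called lower in each genotype (Rag1, Rag2, Dntt, Tcf7 and Bcl11b) and Il2ra was called higher. Ptcra and Gata3 were not called, so the group did not move together and its calls do not measure the number of immature cells. The 5 genes called lower are also expressed in double positive cells. With limma on TPM the split turned to 1 lower and 3 higher in WT mice (Dntt lower, and Il2ra, Ptcra and Gata3 higher) and was 4 lower and 2 higher in Nrf2KO mice. Il2ra, which encodes the alpha chain of the interleukin-2 receptor (CD25), was at 5.26 to 6.86 TPM in GC_WT (median 6.52) and at 10.4 to 21 TPM in FL_WT (median 14). Its level in Nrf2KO mice was 6.1 to 9.33 TPM on the ground (median 7.04) and 15.6 to 21.7 in flight (median 16.7). All flown mice lay above all ground mice of their genotype, with log2 fold changes of 0.97 ± 0.102 (SE; adjusted p = 2.38e-06) in WT and 0.96 ± 0.105 (adjusted p = 6.35e-07) in Nrf2KO mice. CD25 also marks regulatory T cells, and their factor Foxp3, named after its values were seen, was at 0.24 to 1.19 TPM in GC_KO (median 0.565) and 1.13 to 1.94 in FL_KO (median 1.43), a change of 0.83 ± 0.298 (adjusted p = 0.0294). In WT mice Foxp3 was at 0.44 to 1.39 TPM on the ground and 0.48 to 1.28 in flight and was not called.

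Dntt, the enzyme that adds bases at the joints of receptor genes, moved the other way. It was at 591 to 699 TPM in GC_WT (median 625) and 418 to 561 in FL_WT (median 490), with no overlap and a log2 fold change of −0.61 ± 0.0819 (adjusted p = 2.05e-05). In Nrf2KO mice it was at 403 to 677 TPM on the ground (median 567) and 357 to 446 in flight (median 410), where the ranges overlapped on TPM, and the fold change was −0.69 ± 0.0867 (adjusted p = 2.42e-06). Rag1, a subunit of the recombinase that cuts receptor genes, was at 771 to 922 TPM in GC_WT (median 869) and 715 to 867 in FL_WT (median 788), with a log2 fold change of −0.35 ± 0.0614 (adjusted p = 0.000283). In Nrf2KO mice Rag1 was at 481 to 793 TPM on the ground (median 680) and 468 to 572 in flight (median 518), with a fold change of −0.57 ± 0.065 (adjusted p = 9.87e-07). Its ranges thus overlapped in both genotypes on TPM. Rag2, its partner, changed by −0.43 ± 0.081 (adjusted p = 0.00047) and −0.70 ± 0.0869 (adjusted p = 2.25e-06).

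Tcf7, the factor TCF-1 that sets T cell fate, was at 493 to 611 TPM in GC_WT (median 562) and 502 to 592 in FL_WT (median 515). In Nrf2KO mice it was at 482 to 632 TPM on the ground (median 547) and 443 to 522 in flight (median 482). The TPM ranges overlapped in both, and the log2 fold changes on counts were −0.29 ± 0.051 (adjusted p = 0.000252) and −0.45 ± 0.0539 (adjusted p = 1.57e-06). Bcl11b, a factor that fixes T cell identity, changed by −0.28 (adjusted p = 0.0171) and −0.35 (adjusted p = 0.00288). Ptcra, which pairs with the beta chain before an alpha chain is made, was not called, with fold changes of 0.18 and 0.08, and neither was the factor Gata3, with 0.05 and −0.02.

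**Figure D3:**
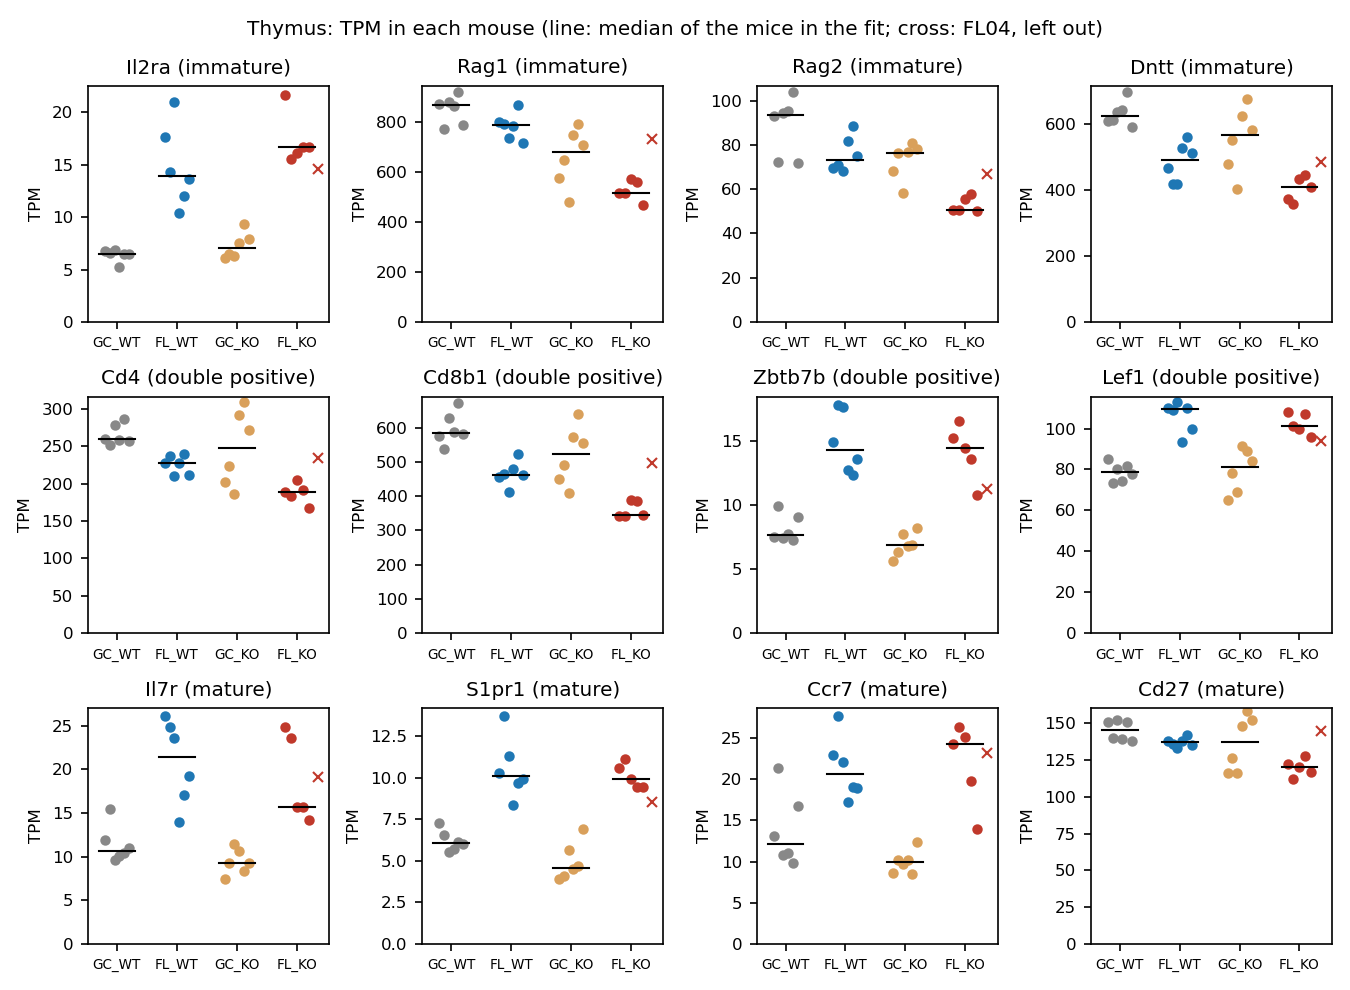
TPM of 12 members in thymus by group, with 1 point per mouse, a line at the median of the mice used and a cross for FL04, which was left out. Il2ra, Zbtb7b and S1pr1 are higher in both flown groups, with every flown mouse above every ground mouse of its genotype, Cd8b1 and Dntt are lower in FL_WT than in every GC_WT mouse, and GC_KO mice are widely spread for Rag1, Cd4 and Dntt.

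In the double positive group, 6 of 10 genes were called lower in each genotype (Cd4, Cd8a, Cd8b1, Themis, Satb1 and Ccr9) and 2 higher. With limma on TPM, 2 were called lower and 3 higher in WT mice and 4 lower and 3 higher in Nrf2KO mice. Cd8b1, the beta chain of the CD8 coreceptor, was at 539 to 674 TPM in GC_WT (median 584) and 412 to 524 in FL_WT (median 464), a change of −0.58 ± 0.0648 (log2, adjusted p = 3.78e-06). The Nrf2KO mice had 411 to 640 TPM (median 523) and 341 to 390 (median 346), a change of −0.77 ± 0.0689 (adjusted p = 6.49e-08). No flown mouse in the fit reached the lowest ground mouse of its genotype, but FL04, which was left out, was at 496 TPM. Cd8a, the alpha chain, changed by −0.55 in WT and −0.72 in Nrf2KO mice. Cd4, the other coreceptor, was at 252 to 287 TPM in GC_WT (median 260) and 210 to 240 in FL_WT (median 228), a change of −0.46 ± 0.0601 (adjusted p = 1.37e-05). In Nrf2KO mice Cd4 was at 186 to 309 TPM (median 248) and 168 to 205 (median 189), a change of −0.64 ± 0.0637 (adjusted p = 2.02e-07), with overlap on TPM at the low end of GC_KO.

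Ccr9, the receptor for the chemokine CCL25 of the thymic cortex, was at 191 to 240 TPM in GC_WT (median 218) and 171 to 210 in FL_WT (median 188), a log2 change of −0.41 ± 0.0525 (adjusted p = 1.2e-05). It was at 156 to 212 TPM in GC_KO (median 197) and 131 to 175 in FL_KO (median 163), a change of −0.50 ± 0.0556 (adjusted p = 8.28e-07). Themis, a T cell receptor adaptor needed for selection, changed by −0.28 ± 0.0468 (adjusted p = 0.000147) in WT mice, where its TPM gave 0.02, and by −0.45 ± 0.0495 (adjusted p = 6.32e-07) in Nrf2KO mice. Its TPM ranged from 189 to 240 in GC_WT (median 227), 204 to 253 in FL_WT (median 213), 188 to 247 in GC_KO (median 228) and 194 to 214 in FL_KO (median 203), with overlap in both genotypes. Satb1, an organiser of chromatin in double positive cells, changed by −0.25 and −0.39, with ranges that overlapped on TPM.

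The called rises of this group were Zbtb7b in both genotypes, Lef1 in WT and Cd69 in Nrf2KO mice. Of these, Zbtb7b and Cd69 are genes of cells under or past selection. Zbtb7b, the factor ThPOK that commits cells to the CD4 lineage, was at 7.27 to 9.91 TPM in GC_WT (median 7.61) and 12.3 to 17.8 in FL_WT (median 14.3), a log2 change of 0.61 ± 0.113 (adjusted p = 0.000411). Levels in Nrf2KO mice were 5.65 to 8.15 TPM (median 6.84) and 10.8 to 16.5 (median 14.4), a change of 0.78 ± 0.12 (adjusted p = 2.18e-05), and the groups did not overlap in either genotype. Lef1, a relative of TCF-1, was at 73.3 to 85.2 TPM in GC_WT (median 78.9) and 93.3 to 113 in FL_WT (median 109), a change of 0.21 ± 0.0389 (adjusted p = 0.000516), and its fold change in Nrf2KO mice was 0.09 (adjusted p = 0.0701). Cd69, an early activation marker that rises on cells under selection, was at 16.7 to 22.6 TPM in GC_KO (median 20.1) and 25.3 to 45.3 in FL_KO (median 28.2), a change of 0.35 ± 0.119 (adjusted p = 0.0217), and its fold change in WT mice was 0.02. The Cd69 call was lost without FL_KO mouse 1, FL_KO mouse 2 or GC_KO mouse 4, with a fold change down to 0.25 and an adjusted p up to 0.109. Tox, a factor needed for the CD4 lineage, was not called in either genotype (0.05 and −0.08).

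In the mature group of 5 genes, 2 were called higher in WT mice (Il7r and S1pr1) and 4 in Nrf2KO mice (also Ccr7 and Klf2), and Cd27 was called lower in both. With limma on TPM 4 were called higher and 0 lower in each genotype. S1pr1 was at 5.53 to 7.25 TPM in GC_WT (median 6.07) and 8.38 to 13.7 in FL_WT (median 10.1), a log2 change of 0.53 ± 0.117 (adjusted p = 0.00195). It was at 3.89 to 6.93 TPM in GC_KO (median 4.58) and 9.42 to 11.1 in FL_KO (median 9.92), a change of 0.77 ± 0.126 (adjusted p = 4.21e-05), and neither pair of groups overlapped. Il7r, the interleukin-7 receptor that keeps naive cells alive, was at 9.59 to 15.5 TPM in GC_WT (median 10.7) and 14 to 26.1 in FL_WT (median 21.4), with a small overlap and a change of 0.62 ± 0.152 (adjusted p = 0.00471). In Nrf2KO mice it was at 7.49 to 11.4 TPM (median 9.23) and 14.2 to 24.8 (median 15.7) without overlap, a change of 0.73 ± 0.162 (adjusted p = 0.00103).

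Ccr7, the receptor that leads selected cells to the medulla, was at 8.47 to 12.4 TPM in GC_KO (median 9.93) and 14 to 26.3 in FL_KO (median 24.3), a log2 change of 0.88 ± 0.183 (adjusted p = 0.000525). In WT mice it was at 9.88 to 21.4 TPM (median 12.1) and 17.3 to 27.7 (median 20.6), and with 0.37 ± 0.169 (adjusted p = 0.112) it was not called. Klf2 changed by 0.57 ± 0.135 (adjusted p = 0.00186) in Nrf2KO mice and had a fold change of 0.34 (adjusted p = 0.0608) in WT mice. Cd27, a costimulatory receptor that is already present on double positive cells, was at 138 to 152 TPM in GC_WT (median 145) and 133 to 142 in FL_WT (median 137), a change of −0.31 ± 0.0444 (adjusted p = 3.7e-05). In Nrf2KO mice Cd27 was at 116 to 158 TPM (median 137) and 112 to 128 (median 120), a change of −0.43 ± 0.047 (adjusted p = 6.93e-07), and the TPM ranges overlapped in both genotypes.

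Of the 11 shared genes, 7 were called lower in WT mice and 9 in Nrf2KO mice, and 0 were called higher in either. The edgeR test at an unadjusted p under 0.05 gave 0 higher in WT and 1 in Nrf2KO mice, DESeq2 gave 0, and limma on TPM gave 1 higher in each (Cd2). The lower calls on TPM were 1 in WT and 2 in Nrf2KO mice, in place of 7 and 9. Lck, the kinase that starts receptor signalling, was at 389 to 440 TPM in GC_WT (median 417) and 340 to 417 in FL_WT (median 376), a log2 change of −0.38 ± 0.0488 (adjusted p = 1.37e-05). The Nrf2KO mice had 334 to 435 TPM (median 390) and 309 to 351 (median 329), a change of −0.48 ± 0.0515 (adjusted p = 5.86e-07). Both pairs of groups overlapped on TPM. Zap70, the kinase downstream of Lck, changed by −0.41 ± 0.0419 in Nrf2KO mice (adjusted p = 2.86e-07; 42.7 to 59 TPM on the ground, median 50.4, and 42 to 47.7 in flight, median 44.8) and by −0.25 in WT mice. Lat, the adaptor that Zap70 marks, changed by −0.20 and −0.35, Cd28, a costimulatory receptor, by −0.21 and −0.26, and Ets1, a lymphocyte transcription factor, by −0.27 and −0.35 in WT and Nrf2KO mice.

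The chains of the CD3 complex did not move alike. Cd3d was at 65.4 to 76.6 TPM in GC_WT (median 72) and 56.6 to 70.4 in FL_WT (median 59.4), a log2 change of −0.44 ± 0.0591 (adjusted p = 2.07e-05), and changed by −0.47 in Nrf2KO mice. Cd247, the zeta chain, was at 197 to 225 TPM in GC_WT (median 215) and 190 to 213 in FL_WT (median 199), a change of −0.31 ± 0.0424 (adjusted p = 2.07e-05). In Nrf2KO mice it was at 148 to 225 TPM (median 190) and 146 to 172 (median 165), a change of −0.44 ± 0.0449 (adjusted p = 2.86e-07). Cd3e had fold changes of −0.08 (adjusted p = 0.363) in WT and −0.25 (adjusted p = 0.00381) in Nrf2KO mice, and Cd3g −0.17 (adjusted p = 0.0751) and −0.22 (adjusted p = 0.0198); on TPM the changes of Cd3e and Cd3g were above 0 in both genotypes. The TPM of Cd3e per TPM of Cd3d was 1.32 to 1.62 in GC_WT, 1.82 to 2.26 in FL_WT, 1.75 to 2.17 in GC_KO and 2.06 to 2.6 in FL_KO, and an annotated gene overlaps Cd3e on the opposite strand. Cd2, an adhesion molecule, and Cd5, a brake on receptor signalling, were not called in either genotype.

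**Figure D4:**
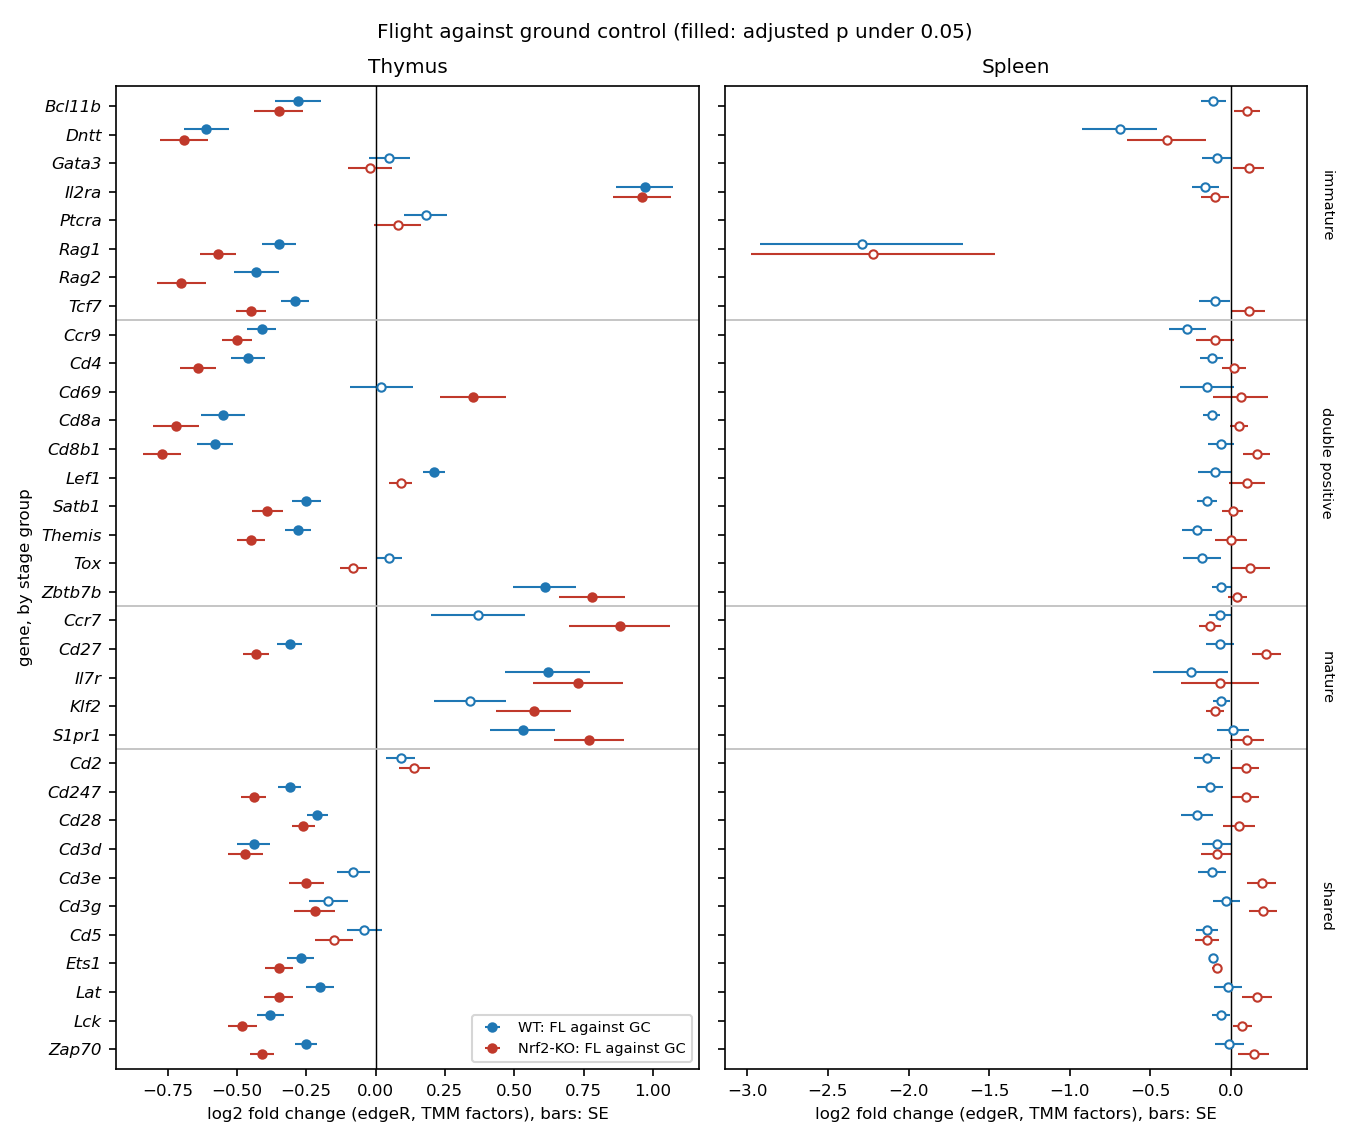
Log2 fold change of flight against ground for each member (rows, by stage group) in thymus (left) and spleen (right), from edgeR on TMM-scaled counts with bars of 1 SE, in WT and Nrf2KO mice, and filled points at an adjusted p under 0.05 (the panels have different axis ranges, and Ptcra and Rag2 were not tested in spleen). In thymus 19 (WT) and 21 (Nrf2KO) members lie below 0 and pass, although Cd28, Lat and Themis (WT) and Cd3e, Cd3g and Cd28 (Nrf2KO) do not lie below 0 on TPM, and in spleen none passes.

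Ratios of members within a library do not depend on how libraries are scaled, and they are given as a description. The TPM of Il7r per 1000 TPM of Rag1 was 10.9 to 20.1 in GC_WT thymus (median 12.7) and 17.9 to 32.5 in FL_WT (median 29.2). It was 10.6 to 23.8 in GC_KO (median 13.6) and 27.5 to 47.9 in FL_KO (median 30.3). The ratio was thus higher in all FL_KO than in all GC_KO mice, and overlapped between the WT groups. The TPM of Ccr7 per 1000 TPM of Cd8b1 was 14.7 to 39.7 in GC_WT, 36 to 59.6 in FL_WT, 13.2 to 23.6 in GC_KO and 40.5 to 77 in FL_KO. Cd4 per Cd8a stayed within 0.648 to 0.834 in all 4 groups. Cd8a per Cd8b1 was 0.604 to 0.64 in GC_WT and 0.66 to 0.724 in GC_KO, without overlap, and 0.603 to 0.707 in FL_WT and 0.703 to 0.731 in FL_KO. The summed TPM of the 34 members was 6699 to 7696 in GC_WT, 6119 to 7226 in FL_WT, 5217 to 7514 in GC_KO and 5250 to 5790 in FL_KO.

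Calls with flight in thymus for other genes of the same pathway, taken from lists, were as follows. Of all genes tested, 11% were called lower and 11.8% higher in WT mice, and 18.9% and 19.3% in Nrf2KO mice. Some counts below, such as those of the egress list in WT mice, lie near these shares. Of 24 further genes of receptor signalling, 13 were called lower and 1 higher in WT mice and 15 lower and 2 higher in Nrf2KO mice, with medians of −0.14 and −0.20. They include the transcription factor Nfatc3 (−0.36 and −0.48) and the adaptor Trat1 (−0.41 and −0.52), while Cblb, which restrains signalling, was higher (0.28 and 0.31). On TPM 7 of the 24 were called higher in each genotype, and 0 (WT) and 2 (Nrf2KO) lower. Of 22 further lineage factors, 4 were lower and 3 higher in WT mice and 7 lower and 9 higher in Nrf2KO mice. Runx3, the factor of the CD8 lineage, was higher (0.36 and 0.68). Of 19 further surface genes, 7 were lower and 3 higher in WT mice and 7 lower and 8 higher in Nrf2KO mice. The receptor constant genes Trbc2 (−0.50 and −0.61) and Trbc1 (−0.64 and −0.80), which are near copies of each other, were lower, and Cd53 (0.41 and 0.62) and Itgb7 (0.28 and 0.58) were higher. Of 10 genes of egress and survival, 2 were lower and 1 higher in WT mice and 3 and 3 in Nrf2KO mice, with Bcl2l1, which keeps double positive cells alive, lower (−0.44 and −0.54) and Bcl2, which protects mature cells, higher (0.35 and 0.45). On TPM, the lineage list had 6 genes called higher and 0 lower in WT mice and 6 and 2 in Nrf2KO mice. The surface list had 5 higher and 2 lower and 6 and 4, and the egress list 2 and 0 and 3 and 0. In WT mice all 4 lists, receptor signalling included, thus turned from more lower than higher calls to more higher than lower. The receptor signalling list did so in Nrf2KO mice too. Some genes stand in 2 of these 4 lists, Cd6 and Foxo1 among them.

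Genes of dividing cells and of other cell types were also tested with flight in the same thymuses. The shares of all genes called were 11% lower and 11.8% higher in WT mice, and 18.9% and 19.3% in Nrf2KO mice. Some counts below, such as that of the fat genes, lie near these shares. The part of all these genes in the members' values was not tested. Of 20 proliferation genes, 11 were called lower in WT and 14 in Nrf2KO mice and 0 higher in either by edgeR at an adjusted or an unadjusted p under 0.05 or by limma on TPM. The lower calls on TPM were 7 and 8. Examples are Birc5 (−0.64 in each) and Aurkb (−0.54 and −0.61); their summed TPM was 1180 to 1573 in GC_WT, 977 to 1482 in FL_WT, 973 to 1540 in GC_KO and 1057 to 1175 in FL_KO. Of 11 thymic epithelial genes, 5 (WT) and 6 (Nrf2KO) were higher, among them Prss16 (0.46 and 0.31) and Epcam (0.40 and 0.67), with sums of 978 to 1246 TPM in GC_WT, 1368 to 1962 in FL_WT, 708 to 1147 in GC_KO and 1120 to 1427 in FL_KO. Of 10 myeloid genes, 4 and 9 were higher, with sums of 240 to 328, 317 to 616, 177 to 272 and 350 to 459 TPM in the same order. Of 9 tested B cell genes, 3 and 7 were higher, with sums of 20.3 to 26.9, 27 to 36.4, 15.3 to 27.1 and 27 to 40.8 TPM. Of 10 genes of stroma and endothelium, 4 and 6 were higher, and of 7 dendritic genes, 1 was higher and 2 lower in WT and 5 higher in Nrf2KO mice. Of 6 tested natural killer genes 3 were higher in Nrf2KO mice, of 9 fat genes 1 was higher in WT mice, of 5 tested erythroid genes 1 was lower in Nrf2KO mice, and of 3 tested muscle genes 1 was higher and 1 lower in each.

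Fewer members were called between genotypes in thymus. On the ground, 2 were called higher in GC_KO than in GC_WT and 1 lower, where 2.67% of all genes were called higher and 1.13% lower. Rag1 was lower, with the TPM ranges given above (481 to 793 against 771 to 922), a log2 change of −0.27 ± 0.0614 and an adjusted p of 0.0116. Lef1 had a change of 0.15 ± 0.039 (adjusted p = 0.0297; 64.8 to 91.3 TPM in GC_KO, median 81.1) and Cd3e of 0.22 ± 0.0606 (adjusted p = 0.0425; 95.8 to 142 TPM in GC_KO, median 116, and 95.7 to 124 in GC_WT, median 107). Both higher calls were lost without the GC04 library and without GC11, both were kept without GC01, and leaving out single mice in turn lost that of Lef1 in 15 of 23 fits and that of Cd3e in 18.

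In flight, 5 members were called lower in FL_KO than in FL_WT, where 1.34% of all genes were called lower and 1.31% higher. These were Rag1 (−0.49 ± 0.0649, adjusted p = 2.89e-05), Rag2 (−0.42 ± 0.0867, adjusted p = 0.00837), Cd247 (−0.22 ± 0.0448, adjusted p = 0.00879), Cd8b1 (−0.29 ± 0.0683, adjusted p = 0.0208) and Cd5 (−0.27 ± 0.0674, adjusted p = 0.0333). For Rag1 the 5 FL_KO mice (468 to 572 TPM) all lay below the 6 FL_WT mice (715 to 867 TPM), and for Rag2 likewise (50.2 to 58 against 68.2 to 88.6 TPM). Cd247 (146 to 172 against 190 to 213 TPM) and Cd8b1 (341 to 390 against 412 to 524) did not overlap either, while Cd5 did (50.7 to 65.8, median 56.6, against 63 to 80.7, median 75.2). FL04, the FL_KO mouse left out, was within the FL_WT range for Rag1 (731 TPM), Cd247 (206) and Cd8b1 (496). For Rag2 it was below that range (66.7 TPM) and above the other FL_KO mice. No member was called higher by edgeR, DESeq2 or limma on TPM. At an unadjusted p under 0.05 edgeR gave 16 lower and 2 higher, and the share of all genes at that threshold is not given. Leaving out single mice kept Rag1, Rag2 and Cd247 in all 23 fits, and lost Cd8b1 in 6 fits and Cd5 in 6, with adjusted p up to 0.0849 and 0.116. These were the fits without FL_KO mouse 1, 2 or 12 or FL_WT mouse 8 or 10 for both genes, without FL_WT mouse 7 for Cd8b1 and without FL_WT mouse 3 for Cd5. DESeq2 called 8 members lower here, adding Cd4, Cd28 and Ccr9, and limma on TPM called Rag1 and Rag2.

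Whether flight acted differently on the members in the 2 genotypes was tested as an interaction. No member passed it (0% of all 16307 genes did), by edgeR, DESeq2 or limma on TPM. At an unadjusted p under 0.05, 7 members had a larger fall in Nrf2KO mice (Zap70, Themis, Rag1, Rag2, Tcf7, Cd247 and Cd4) and 0 a smaller one, and 27 of 34 estimates lay below 0 with a median of −0.10, beside −0.02 over all genes. The share of all genes at that unadjusted threshold is not given. For Rag1 the estimate was −0.22 ± 0.089 (log2, adjusted p = 0.505) and for Ccr7 it was 0.51 ± 0.25 (adjusted p = 0.614). The calls that appear in 1 genotype alone are therefore not shown to differ between genotypes.

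In spleen Rag1, Rag2, Ptcra and Dntt were at low counts, while 4 other genes of the immature group were measured at median GC_WT levels of 235 TPM (Tcf7), 26.9 (Bcl11b), 8.59 (Gata3) and 8.02 (Il2ra). Rag2 and Ptcra had median counts of 0 and did not pass the filter, so 32 members were tested. Rag1 counted 0 to 41 reads per library and was at 0.08 to 0.82 TPM in GC_WT (median 0.18) and 0.02 to 0.14 in FL_WT (median 0.04), and its fitted change of −2.29 ± 0.629 (log2, adjusted p = 0.0556) rests on these few reads. Foxn1, the defining factor of thymic epithelium, was at 0 in every group, and B cell genes summed to 2981 to 4540 TPM.

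With flight, no member was called in spleen in either genotype by edgeR. At an unadjusted p under 0.05, 9 members were lower and 0 higher in WT mice, and 3 higher and 2 lower in Nrf2KO mice. The share of all genes at that unadjusted threshold is not given. At the adjusted threshold, of all 16170 genes tested, 1.15% were called higher and 1.11% lower in WT mice and 0.155% higher and 0.513% lower in Nrf2KO mice. DESeq2 called 1 member lower in WT mice, Ets1, a factor of mature lymphocytes, at 302 to 340 TPM in GC_WT (median 317) and 280 to 319 in FL_WT (median 295), and 0 in Nrf2KO mice, and limma on TPM called 0 in both. The genes that rose in thymus were not raised in spleen, where Il2ra had −0.16 and −0.10, Zbtb7b −0.06 and 0.04, S1pr1 0.01 and 0.10 and Il7r −0.25 and −0.07 in WT and Nrf2KO mice. None of these 8 values passed. Median log2 changes of the 32 members were −0.12 in WT and 0.06 in Nrf2KO mice, beside 0.00 and 0.01 over all genes. In the same spleens 8 (WT) and 10 (Nrf2KO) of 10 erythroid genes were lower in flight, with sums of 6690 to 25661 TPM in GC_WT, 1282 to 5400 in FL_WT, 8022 to 38373 in GC_KO and 2470 to 4135 in FL_KO, and their part in the members' values was not tested.

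Between genotypes in spleen, Cd4 alone was called. It was at 119 to 139 TPM in FL_KO (median 127) and 91.2 to 110 in FL_WT (median 107), without overlap, a log2 change of 0.34 ± 0.0729 (adjusted p = 0.0135), where 0.495% of all genes were called higher and 0.662% lower. Without FL_KO mouse 11 the change was 0.29 with an adjusted p of 0.0601. At an unadjusted p under 0.05, 16 members were higher and 1 lower in FL_KO, with a median change of 0.20 beside 0.00 over all genes. The share of all genes at that unadjusted threshold is not given. DESeq2 called Lck, Cd3e and Tox higher besides Cd4. On the ground Cd4 was at 120 to 141 TPM in GC_KO (median 129) and 101 to 124 in GC_WT (median 113), and 0 members were called by edgeR, DESeq2 or limma on TPM (2 higher and 0 lower at an unadjusted p under 0.05), against 0.588% of all genes higher and 0.538% lower. The TPM of Cd4 per TPM of Cd8a in spleen was 1.25 to 1.58 in GC_WT and 1.2 to 1.67 in FL_WT, and 1.57 to 1.9 in GC_KO and 1.58 to 1.92 in FL_KO. No member passed the interaction test in spleen (0% of all genes did), with 4 above and 0 below 0 at an unadjusted p under 0.05.

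In the other 7 tissues, members formed 124 tested pairs of gene and tissue and few were called. With flight 1 pair was called in WT and 1 in Nrf2KO mice, where 4.75% and 5.73% of all 108365 pairs were called. Both were Ets1 in eWAT, which was at 27.3 to 30.6 TPM in GC_WT and 36.7 to 45.9 in FL_WT (log2 change 0.39, adjusted p = 0.000597), and at 22.3 to 28.6 in GC_KO and 27.9 to 40.8 in FL_KO (0.44, adjusted p = 0.000889). It was thus higher in eWAT and called lower in thymus. Between genotypes 2 pairs were called on the ground and 2 in flight, against 1.4% and 1.19% of all pairs. Zap70 in liver was lower in GC_KO (0.9 to 1.64 TPM) than in GC_WT (2.11 to 3.93; −1.12, adjusted p = 0.00453) and lower in FL_KO (0.56 to 1.55) than in FL_WT (1.4 to 3.41; −1.12, adjusted p = 0.00912). Ets1 in eWAT was lower in GC_KO than in GC_WT (−0.26, adjusted p = 0.046), and Cd8a in kidney was higher in FL_KO (0.82 to 1 TPM) than in FL_WT (0.14 to 0.38; 1.61, adjusted p = 0.0298) with 3 mice per group. Temporal bone, where 31 members were tested, gave 0 calls in each of the 4 contrasts by edgeR, with 2 pairs at an unadjusted p under 0.05 in each.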

How the data were processed

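RNA-seq was measured in 192 samples of 9 tissues. Per the labels, reads were aligned with STAR 2.6.1 to mm10 and counted per gene with RSEM 1.3.1, and the strand setting of the counting is not given in the sources used here. The authors deposited expected counts per gene, TPM (transcripts scaled to a fixed total and corrected for length) and FPKM per library, and the 192 columns of FPKM were not used. Thymus RNA was depleted of ribosomal RNA and the other tissues were selected for poly(A).

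The expected counts were rounded, genes were filtered by group with filterByExpr, and libraries were scaled by TMM. The 4 groups of a tissue were fitted together with edgeR 4.0.16 (quasi-likelihood, R 4.3.3), without FL04, and p-values were adjusted by Benjamini-Hochberg over all genes tested in that tissue, with a threshold of 0.05. Fold changes are log2 with SE. The scripts were tested on simulated data. Levels are TPM as deposited, given as lowest, median and highest mouse. Each mouse is a separate animal, 6 per group (3 in mandibular bone and kidney). Depth was 8.008 M to 10.56 M counts in thymus, so a gene at few TPM, such as Klf2, rests on a median of 154 counts.

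Each comparison was repeated with RLE factors, with DESeq2 1.42.0, with limma 3.58.1 for genes with a mean of at least 5 TPM in a group (after adding 1 or 0.1 TPM and taking log2), with a count minimum of 1, FL04 included, only the groups compared, a replicate block, and each mouse left out.

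The members and the lists (receptor signalling, lineage factors, surface genes, egress and survival, proliferation, thymic epithelium, myeloid, B, dendritic, natural killer, stroma and endothelium, fat, erythroid and muscle genes) were chosen with earlier results of these data known. Values are printed in full for up to 3 called members per stage group and contrast, by adjusted p, and for members called against the direction of their group. Up to 2 called genes per direction are named from other lists, and some genes of these lists are not reported here. Members named beyond this are given by their fold change. Promoter sequences are from RefSeq (GRCm38.p6), and the 34 gene symbols were matched to gene IDs of the deposited table.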

Additional observations from a re-analysis of the deposited data

Results flagged for a closer look

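In the thymus of GC_WT mice, mouse GC07 had an Il2ra level of 5.26 TPM, and the nearest of the other 5 mice was at 6.5 and the highest at 6.86. In the thymus of FL_KO mice, mouse FL01 had an Il2ra level of 21.7 TPM, and the nearest mouse was at 16.7 and the lowest at 15.6. Each stood apart from its group by more than the 95% limit of Dixon's test on the gap to the nearest mouse. Such gaps were looked for in 92 groups of mice over the named members and found in these 2, and chance alone gives about 1 in 20. Il2ra kept its call with flight in both genotypes when each of these mice was left out.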

How the results depend on the processing

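Of the 37 named fold changes, none turned direction under any alternative. Of these, 37 stayed past the threshold with DESeq2 and with RLE factors, 35 without a filter on low counts, 34 with FL04 included, 33 with only the groups compared and 22 with limma on TPM with either pseudocount. With limma on log2(TPM + 1) or log2(TPM + 0.1), members called in thymus were 11 higher and 4 lower with flight in WT mice (in place of 5 and 19), 10 lower in Nrf2KO mice (21), 0 higher in GC_KO than in GC_WT (2) and 2 lower in FL_KO than in FL_WT (5); the shift of all genes on TPM is given above. Thymus calls higher in GC_KO than in GC_WT were 1 with FL04 included and 0 without a filter. Those lower in FL_KO than in FL_WT were 8 with DESeq2, 3 with FL04 included and 3 with only the groups compared. In spleen DESeq2 called 1 member lower with flight in WT mice (in place of 0) and 4 higher in FL_KO than in FL_WT (in place of 1), and 0 were higher there with only the groups compared. In the 7 other tissues, pairs called with flight in WT mice (1) were 2 with DESeq2 and 2 with limma, those in Nrf2KO mice (1) were 4 with limma, those between GC_KO and GC_WT (2) were 4 with DESeq2, 0 with limma and 1 with FL04, without a filter or with only the groups compared, and those between FL_KO and FL_WT (2) were 0 with limma and 1 with only the groups compared. The cause was not tested.

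Leaving out 1 mouse at a time gave, with flight in thymus, 5 to 6 higher and 19 to 20 lower in WT and 6 to 9 higher and 20 to 22 lower in Nrf2KO mice. It gave 0 to 2 higher in GC_KO than in GC_WT, and 0 to 1 higher and 3 to 8 lower in FL_KO than in FL_WT. In spleen it gave 0 to 1 lower with flight in WT mice and 0 to 2 higher in FL_KO than in FL_WT, and in the other tissues 1 to 3, 1 to 5, 1 to 4 and 1 to 3 pairs in the order above.

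Same-numbered flown and ground mice are different animals, and their deviations correlated at -0.0831 to 0.145 in thymus and -0.0714 to 0.173 in spleen. In no other tissue were all pairs over 0.1, with -0.509 to 0.749 in temporal bone and 0.0202 to 0.369 in liver, although the 5 Nrf2KO pairs in liver were at 0.222 to 0.369. The number was therefore not taken as a pairing. With a replicate block, thymus gave 7 higher and 20 lower in WT mice and 7 higher and 22 lower in Nrf2KO mice, spleen 0, and the other tissues 4 pairs in WT and 3 in Nrf2KO mice. No paired analysis was possible between genotypes because WT and Nrf2KO mice share no numbers. Depth limits Rag1, Rag2, Ptcra and Dntt in spleen.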

Other observations

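The thymus of FL04, the flown Nrf2KO mouse that was left out, lay outside the range of the other 5 FL_KO mice for most members. It was above the range of the FL_KO mice for 20 members, within it for 8 (Cd3e, Bcl11b, Tox, Zbtb7b, Ccr7, Il7r, Cd69 and Cd2) and below it for 6 (Ptcra, Lef1, Gata3, S1pr1, Klf2 and Il2ra). Rag1 was at 731 TPM in FL04 against 468 to 572 in the other FL_KO mice and 481 to 793 in GC_KO. Cd8b1 was at 496 TPM against 341 to 390 and 411 to 640, and Dntt at 485 against 357 to 446 and 403 to 677. Il2ra was at 14.6 TPM, below the 15.6 to 21.7 of the other FL_KO mice and above the 6.1 to 9.33 of GC_KO. In spleen FL04 was above the FL_KO range for 4 members, below it for 18 and within it for 12. These are values of 1 mouse, with no test.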
